A study of Mus musculus with 8 samples.

Results

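The Fos and Jun genes of the mouse, Fos, Fosb, Fosl1, Fosl2, Jun, Junb and Jund, were examined in the prefrontal cortex after fear learning. They were chosen by name as the classical AP-1 family, 7 of the 22609 genes in the deposited table. The study asked how the neocortex changes early after a memory is encoded. Total RNA was sequenced from the medial prefrontal cortex, anterior cingulate part, of B6.SJL mice aged 3 months. In the contextual fear conditioning group (4 samples), mice explored a chamber for 3 min and then received 2 foot shocks of 0.8 mA, each lasting 2 s, with 30 s between shocks, and left 15 s later. The context controls (4 samples) had the same visit to the chamber with no shock. All tissue was taken 1 h after training, so both groups carried a recent visit to the chamber. The series calls the samples biological replicates, and the labels do not say whether a sample held tissue of 1 animal or of several. A group left in its home cage was not analysed here.

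AP-1 is a transcription factor made of a pair of leucine zipper proteins, usually a Fos protein joined to a Jun protein. Jun proteins can also pair with each other, while Fos proteins need a partner of another family. Several of these genes, Fos, Fosb and Junb above all, are immediate early genes: their transcription starts within minutes of calcium entry and kinase signalling, with no need for new protein, and Fos RNA and protein are widely used to mark neurons that were recently active. Jund is known as the member with a steady level in most tissues.

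The promoters are shown because the inducible members are known for cyclic AMP response elements, to which the factor CREB binds. The windows below are the 135 bases before the gene start in RefSeq, build GRCm38.p6, written 5′ to 3′ on the strand of the gene. The capitals mark the short form of that element, TGACG, in Fos, Fosb and Junb. In Jun they mark TGACATCA, the element through which human JUN is known to be driven by Jun and ATF proteins, and a MEF2 site. Fosl2 is set beside them as a member with no match.
Fos (chr12:85473755-85473889, plus strand): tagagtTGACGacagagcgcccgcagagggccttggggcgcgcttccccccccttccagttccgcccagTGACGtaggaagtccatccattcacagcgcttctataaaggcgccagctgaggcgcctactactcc
Fosb (chr7:19310046-19310180, minus strand): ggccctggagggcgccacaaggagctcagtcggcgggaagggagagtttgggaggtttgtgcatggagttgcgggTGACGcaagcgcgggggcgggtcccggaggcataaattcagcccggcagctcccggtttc
Junb (chr8:84978749-84978883, minus strand): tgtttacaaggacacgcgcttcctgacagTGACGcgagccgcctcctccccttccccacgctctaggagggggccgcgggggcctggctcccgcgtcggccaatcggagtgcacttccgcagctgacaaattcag
Jun (chr4:95052223-95052357, minus strand): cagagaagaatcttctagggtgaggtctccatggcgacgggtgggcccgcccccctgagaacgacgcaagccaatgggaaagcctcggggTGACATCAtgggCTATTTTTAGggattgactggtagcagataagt
Fosl2 (chr5:32136337-32136471, plus strand): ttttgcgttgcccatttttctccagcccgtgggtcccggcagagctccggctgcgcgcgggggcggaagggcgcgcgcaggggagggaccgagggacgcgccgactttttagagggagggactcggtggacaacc

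The last 250 bases before the start of each gene were searched on both strands for 6 motifs. The short element TGACG stood in 3 of the 6 members with a window (Fos, Fosb and Junb), and 17.8% of 32851 RefSeq windows of the same length hold it. In Fos it began at positions -129 and -66, in Fosb at -60 and in Junb at -106, where -1 is the base before the start. Jun held TGACATCA at -45, a sequence in 2.93% of windows, and a MEF2 site at -33, a motif in 2.92% of windows. The full element TGACGTCA, which contains the short one, was in 1.55% of windows and in no member. The AP-1 site TGACTCA was in 4.46% of windows and in the window of no member. The CArG box, the site of serum response factor, was in 1.47% of windows and in the window of no member. Sequence farther than 250 bases from the start was not searched, so a site there would be missed. Fosl2 and Jund had none of the 6 motifs. These matches describe letters in the windows and are not evidence of binding.

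Sequencing gave between 1992452 and 3565356 gene reads per sample, a depth that was similar in both groups (two-sided exact permutation p = 0.857, n = 4 against 4). Values are gene reads scaled by the factor of each sample, as deposited, and are called scaled reads here. They are not corrected for gene length. A gene was tested where its mean was at least 1, which held for 14704 genes and for 6 of the 7 members. Fosl1 was the member left out.

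Fos, the founding gene of the family, had 338, 464, 320 and 215 scaled reads in fear conditioning replicates 1 to 4, against 224, 234, 338 and 243 in context control replicates 1 to 4. Fear conditioning replicate 2 was the highest sample and fear conditioning replicate 4 the lowest, and the groups overlapped. Fos averaged 334 ± 102 scaled reads after fear conditioning and 260 ± 52.6 in context controls (SD, n = 4 each). The log2 change was 0.33 with a 95% interval of -0.16 to 0.82 (limma p = 0.169, adjusted p = 0.9998; exact permutation p = 0.343). The exact test runs over 70 assignments of the samples, and the smallest p it can give is 0.0286.

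Fosb, which also encodes the long-lived truncated protein delta FosB, had 296, 483, 204 and 224 scaled reads in fear conditioning replicates 1 to 4. Its context controls had 214, 192, 251 and 256. The 2 high values belonged to fear conditioning replicates 1 and 2, and the other conditioned samples lay inside the range of the controls. Fosb averaged 301 ± 127 scaled reads after fear conditioning and 228 ± 30.5 in context controls (SD, n = 4 each), a log2 change of 0.32 with an interval of -0.21 to 0.86 (limma adjusted p = 0.9998; exact permutation p = 0.371). Reads were counted per gene, so the splice form behind delta FosB was not told apart. The ratio of Fosb reads to Fos reads was 0.898 ± 0.191 after fear conditioning and 0.893 ± 0.138 in context controls (SD, n = 4 each).

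Fosl2, which encodes Fra-2, had 436, 671, 344 and 409 scaled reads in fear conditioning replicates 1 to 4, against 387, 308, 522 and 348 in context controls. Fear conditioning replicate 2 was again the highest, and only that sample lay above every control. Fosl2 averaged 465 ± 143 scaled reads after fear conditioning and 391 ± 93.3 in context controls (SD, n = 4 each). The log2 change was 0.23 with an interval of -0.25 to 0.71 (limma adjusted p = 0.9998; exact permutation p = 0.457).

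Fosl1, which encodes Fra-1, had no read in any of the 8 samples. A count of 0 among 21410979 gene reads allows a true level of up to 3 reads over all samples together, or up to 3 reads in any single library. This limit covers counting error only. In the GENCODE vM21 annotation, 57.2% of the exon bases of Fosl1 also belong to exons of Ccdc85b on the opposite strand, and how shared reads were assigned is not given in the sources used here. Ccdc85b itself averaged 63.6 ± 9.24 scaled reads after fear conditioning and 72.0 ± 19.6 in context controls (SD, n = 4 each).

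Jun, the partner that can bind DNA with itself, had 149, 172, 172 and 143 scaled reads in fear conditioning replicates 1 to 4, against 110, 98.0, 154 and 156 in context controls. All 4 conditioned samples lay above the mean of the controls, but context control replicates 3 and 4 lay within the conditioned range. Jun averaged 159 ± 15.4 scaled reads after fear conditioning and 130 ± 30.0 in context controls (SD, n = 4 each). The log2 change was 0.32 with an interval of -0.12 to 0.76 (limma p = 0.138, adjusted p = 0.9998; exact permutation p = 0.171).

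Junb, an inducible Jun gene with weaker activating power than Jun, had 119, 200, 86.1 and 39.3 scaled reads in fear conditioning replicates 1 to 4. Its context controls had 43.2, 69.8, 102 and 67.6. The conditioned samples held both the highest and the lowest value of all 8. Junb averaged 111 ± 67.8 scaled reads after fear conditioning and 70.6 ± 24.1 in context controls (SD, n = 4 each), the largest log2 change among the members at 0.48, with the widest interval, -0.43 to 1.40 (limma adjusted p = 0.9998; exact permutation p = 0.4). It rests on 41 to 151 reads per sample. Exons of Prdx2 on the opposite strand cover 7.52% of the exon bases of Junb, and strandedness is not given, so reads there are uncertain. Prdx2, a peroxide-removing enzyme, averaged 402 ± 104 scaled reads after fear conditioning and 398 ± 80.9 in context controls (SD, n = 4 each).

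Jund had 206, 187, 225 and 193 scaled reads in fear conditioning replicates 1 to 4, against 178, 218, 260 and 288 in context controls. No conditioned sample reached the mean of the controls, and the controls spanned the whole conditioned range. Jund averaged 203 ± 17.0 scaled reads after fear conditioning and 236 ± 48.4 in context controls (SD, n = 4 each). The log2 change was -0.20 with an interval of -0.59 to 0.20 (limma adjusted p = 0.9998; exact permutation p = 0.314). An antisense gene, Gm11175, covers 52.6% of the exon bases of Jund, and it was not in the table.

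**Figure D1:**
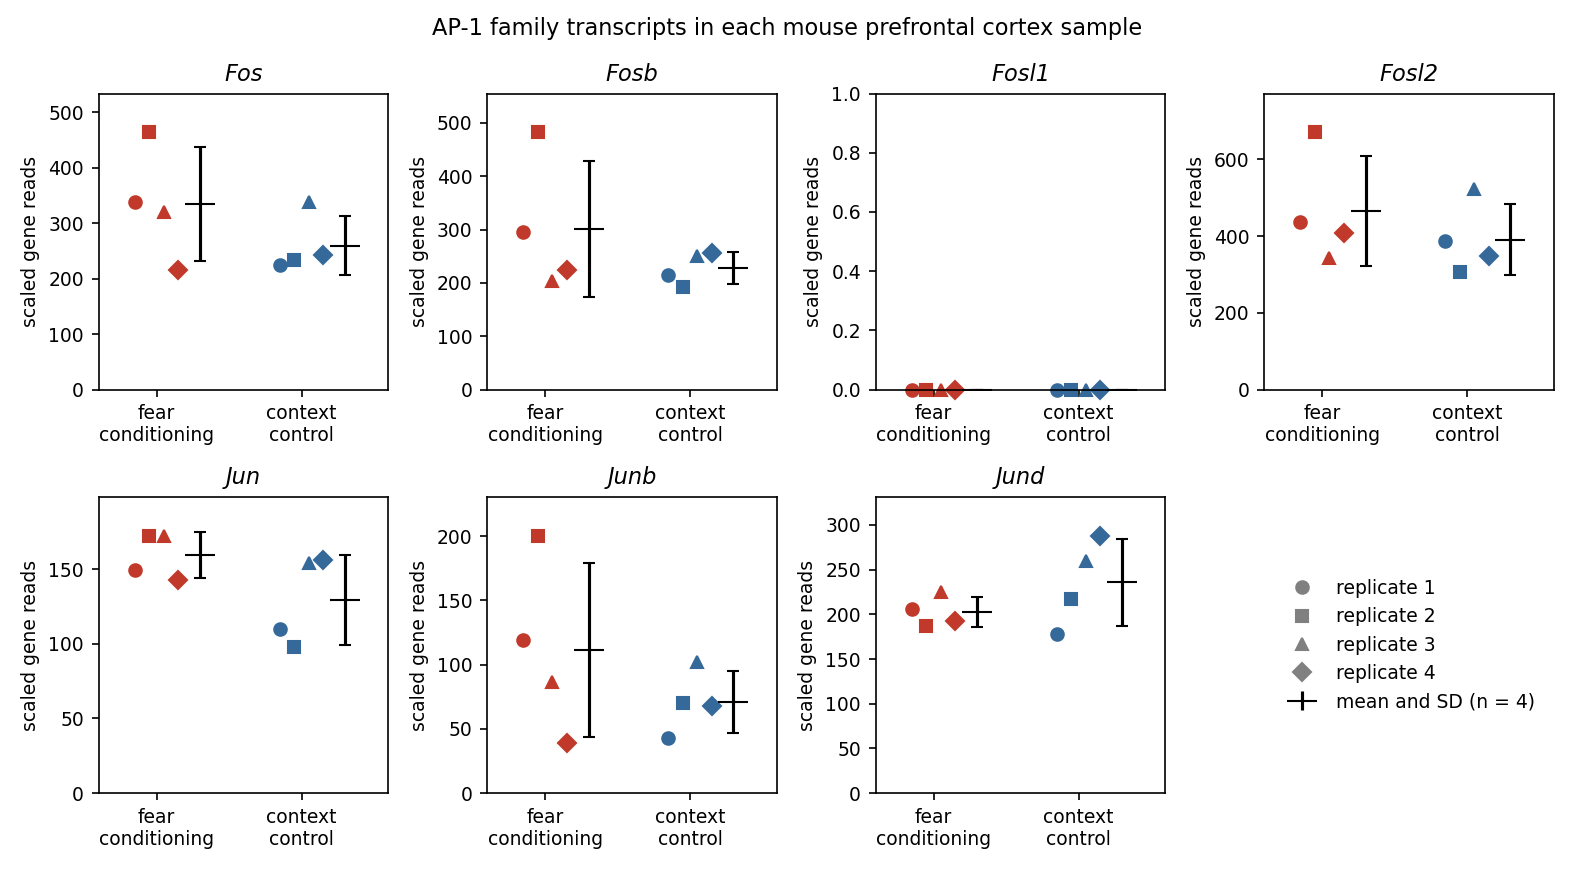
Scaled gene reads (vertical axis, from 0) of the 7 AP-1 members in each of 4 fear conditioning samples (left, red) and 4 context control samples (right, blue), with the mean and SD of each group in black and the marker shape giving the replicate number. The groups overlap for the 6 detected members, and fear conditioning replicate 2 (square) is the highest sample for Fos, Fosb, Fosl2, Jun and Junb.

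No member changed past the threshold: 0 of 6 had a limma adjusted p under 0.05, where the share called among all tested genes was 0%. At an unadjusted p under 0.05, 0 of 6 members and 2.7% of all tested genes (397 of 14704) were called. The count models called no member either, even at an unadjusted p under 0.05. They gave 385 genes (edgeR) and 340 genes (DESeq2) an unadjusted p under 0.05 and 0 genes an adjusted one. The groups failed to overlap for 0 of 6 members and for 1.92% of all tested genes. The direction was higher after fear conditioning for 5 of 6 members, with Jund the exception, and 51.8% of all tested genes were higher. The median log2 change of the members was 0.32, against 0.01 over all tested genes. The intervals show what the data allow: a fold of up to 1.77 for Fos, 1.81 for Fosb, 1.64 for Fosl2, 1.69 for Jun and 2.64 for Junb lies inside them. Because whole tissue was sequenced, a change in the number of cells of a type and a change in RNA per cell cannot be told apart.

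Single samples set much of the size of these changes. Without fear conditioning replicate 2 the log2 change was 0.16 for Fos, 0.07 for Fosb, 0.04 for Fosl2 and 0.13 for Junb. Without fear conditioning replicate 4 it was 0.52 for Fos and 0.90 for Junb. Leaving out fear conditioning replicate 3 gave 0.36 for Fosl2. Among the controls, leaving out replicate 1 gave 0.27 for Junb and -0.32 for Jund, and leaving out replicate 2 gave 0.13 for Fosl2 and 0.20 for Jun. Leaving out context control replicate 3 gave 0.46 for Fos, 0.38 for Fosl2 and 0.68 for Junb. Leaving out context control replicate 4 gave -0.09 for Jund. Weighting the samples by their estimated quality in limma gave 0.52 for Fos, 0.98 for Junb and -0.06 for Jund. In that weighted fit the unadjusted limma p was 0.0124 for Fos, 0.0432 for Fosb, 0.0362 for Jun and 0.0131 for Junb. It was under 0.05 for 823 of all 14704 tested genes. Without fear conditioning replicate 4 the unadjusted limma p was 0.0171 for Fos and 0.0162 for Junb, and 802 of 14704 genes were under 0.05. No member passed the adjusted threshold in any of these fits.

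**Figure D2:**
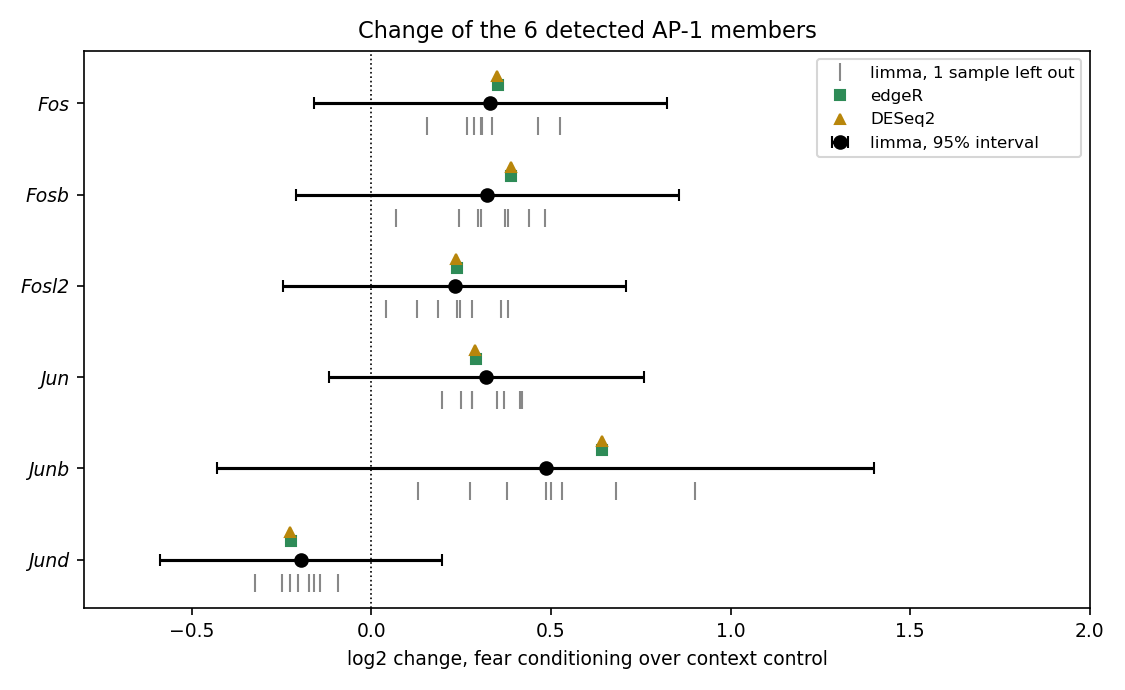
Log2 change of each detected member, fear conditioning over context control (horizontal axis), by limma with its 95% interval (black), by edgeR (green squares), by DESeq2 (triangles) and by limma with 1 sample left out at a time (grey ticks). Every limma interval crosses 0, and the ticks stay on the side of 0 of the full estimate, from 0.04 to 0.90 for the 5 members with a positive change and from -0.32 to -0.09 for Jund.

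The members differed in how much the conditioned samples varied. The coefficient of variation of Junb was 61.0% after fear conditioning and 34.1% in context controls, and counting error alone gives 10.6% at the conditioned level. For Fosb it was 42.2% after fear conditioning and 13.4% in context controls. Jun and Jund varied little among the conditioned samples, with coefficients of 9.66% and 8.40%, near the 8.89% and 7.88% that counting error gives. In context controls they varied by 23.2% and 20.5%. Among 8739 genes with a mean of at least 50, the SD of the log2 value after fear conditioning stood at percentile 97.4 for Junb, 84.7 for Fosb, 75.1 for Fos, 68.9 for Fosl2, 10.7 for Jun and 6.81 for Jund. In context controls the percentile was 89.3 for Junb, 34.4 for Fosb, 56.4 for Fos, 69.3 for Fosl2, 71.8 for Jun and 64.9 for Jund. The SD was higher after fear conditioning for 4 of 6 members (Fos, Fosb, Fosl2 and Junb), beside 64.4% of all tested genes, and the difference in spread was not tested.

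**Figure D3:**
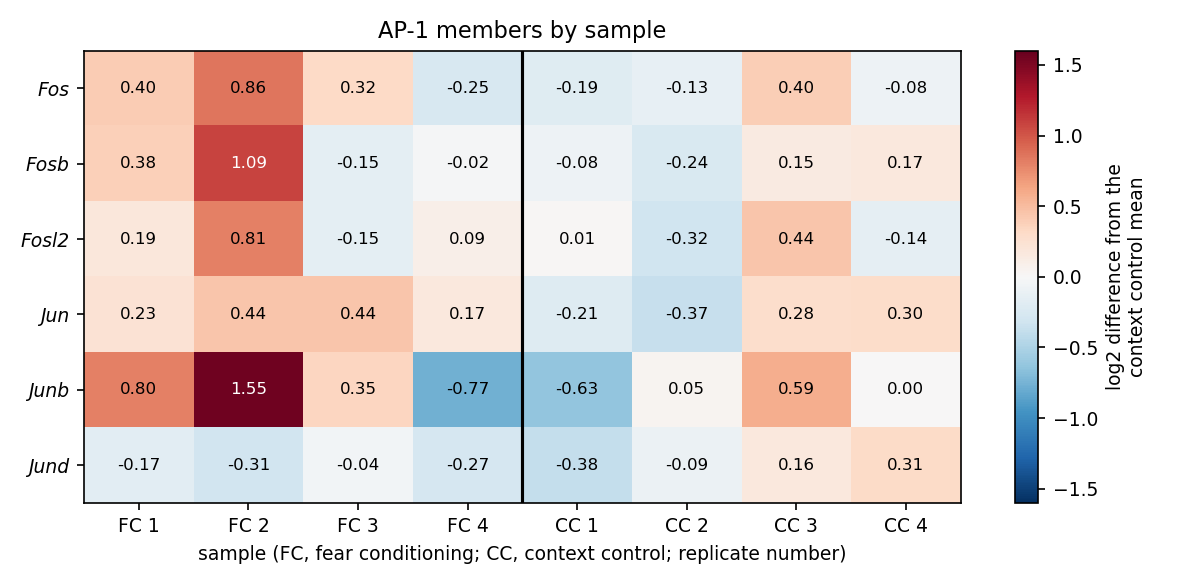
Log2 difference of each detected member (rows) from its context control mean in the 4 fear conditioning samples (FC, left of the line) and the 4 context controls (CC), red for higher and blue for lower. Junb runs from 1.55 in fear conditioning replicate 2 to -0.77 in fear conditioning replicate 4, while the 4 conditioned values of Jund all lie between -0.31 and -0.04.

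The Fos genes took 69.3% ± 4.1 of AP-1 reads after fear conditioning and 66.9% ± 3.9 in context controls (SD, n = 4 each), shares of reads with no correction for length. The balance of Jun genes varied more. The ratio of Jund to Junb reads was 1.73, 0.934, 2.62 and 4.90 in fear conditioning replicates 1 to 4, against 4.12, 3.12, 2.55 and 4.26 in context controls. These are ratios of reads with no correction for length, used to compare samples and not the levels of the genes. Fear conditioning replicate 2 had the lowest ratio of all and fear conditioning replicate 4 the highest, so the groups overlapped.

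Across the 8 samples, Fos and Junb moved together. Their log2 values had Pearson r = 0.96 (exact permutation p = 7.44e-05, adjusted p = 0.0011 over the 15 pairs of members, two-sided) and Spearman rho = 0.98 (exact permutation p = 0.000397, adjusted p = 0.0060). All 4 samples with over 300 scaled reads of Fos, fear conditioning replicates 1 to 3 and context control replicate 3, were also the 4 highest in Junb. With each group centred on its own mean r stayed at 0.96. Without fear conditioning replicates 2 and 4, the samples farthest from the median of Fos, r was 0.90 (exact permutation p = 0.0042, adjusted p = 0.0625), which no longer passed the adjusted threshold. The labels name no sequencing batch, so values within a batch could not be given.

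Of the 15 pairs, 12 had a positive r, 5 had an unadjusted exact permutation p under 0.05 and only Fos with Junb passed after adjustment. The other 4 were Fosb with Fosl2 (r = 0.87), Fos with Fosb (0.80), Fosb with Junb (0.79) and Fos with Fosl2 (0.77), each with an adjusted exact permutation p of 0.0599. Their rank correlations were weaker, with rho of 0.81, 0.67, 0.55 and 0.57 and exact permutation p of 0.0218, 0.0831, 0.171 and 0.151, all over 0.05 after adjustment. Without the 2 samples farthest from the median, r fell to 0.62, 0.51, 0.17 and 0.64 in the same order, with exact permutation p of 0.175, 0.247, 0.704 and 0.168. Fear conditioning replicate 2 was among the samples left out in every case, and 6 samples with a narrower range remained. With each group centred on its own mean, r was 0.85, 0.75, 0.75 and 0.74. Jund had r between -0.25 and 0.28 to the other 5 members over all 8 samples. With each group centred on its own mean its r to Jun was 0.74, and to the rest it lay between -0.12 and 0.27.

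**Figure D4:**
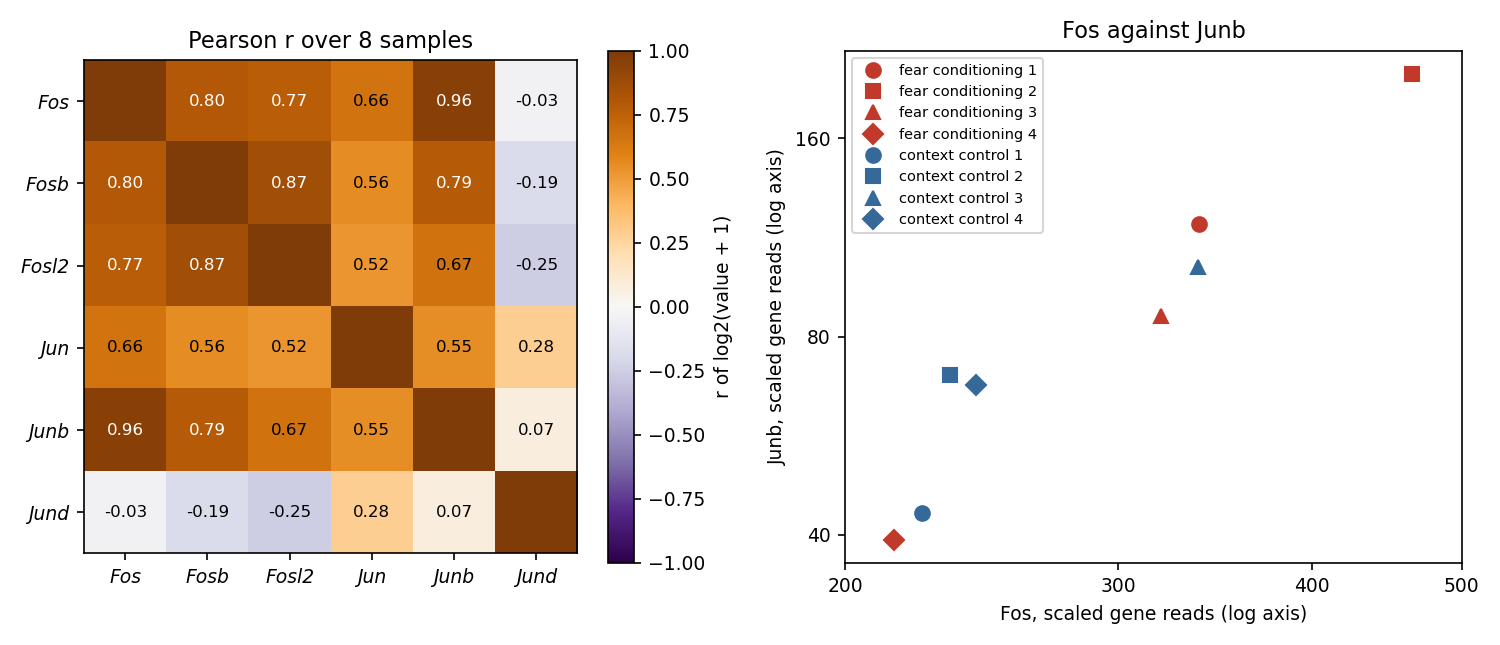
Left, Pearson r of log2(value + 1) over all 8 samples for each pair of the 6 detected members. Right, scaled reads of Fos (horizontal, log axis) against Junb (vertical, log axis) in the 4 fear conditioning samples (red) and 4 context controls (blue). The points for Fos and Junb rise together in both groups, with r = 0.96 over all 8 samples. Within groups r was 0.99 in fear conditioning and 0.86 in context controls, on 4 samples each. Over all 8 samples r with Jund lies between -0.25 and 0.28.

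The genes closest to each member in pattern were read from 8716 other genes with a mean of at least 50, by Pearson r over the 8 samples. They describe likeness in these samples and carry no test. Fos was closest to Meaf6 (r = 0.95), Pygm (0.95) and Fkbp15 (0.94), and Junb to Fkbp15 (0.96) and Pygm (0.95). Pygm encodes the muscle form of glycogen phosphorylase, which astrocytes also use. Fosb was closest to Meaf6 (0.92), Fkbp15 (0.88) and Dyrk3 (0.88). Fosl2 had as its nearest gene Egr2 (0.97), an immediate early zinc finger factor, then Spry2 (0.89), an inhibitor of growth factor signalling, and Rai2 (0.89). Egr2 averaged 215 ± 121 scaled reads after fear conditioning and 182 ± 73.0 in context controls (SD, n = 4 each). Jun was closest to Fcrls (0.94), a microglial gene, Igfbp3 (0.90) and Nupl1 (0.90). Jund was closest to Fads1 (0.95), a fatty acid desaturase, Rpl7 (0.94), a ribosomal protein, and Rraga (0.92). Fosl2, Jun and Jund each shared none of their 3 nearest genes with another member.

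To compare levels between members, scaled reads were divided by exon length. Jund had 131 ± 22.8 scaled reads per kb of exon and Fos 126 ± 36.2 (SD over 8 samples), a log2 difference of 0.09 that went either way, with Jund higher in 5 of 8 samples (exact sign-flip permutation p = 0.594). Fos was above Jun, the next in order, in 8 of 8 samples by 1.46 on the log2 scale (exact permutation p = 0.0078, the smallest possible, adjusted p = 0.0391 over 5 comparisons). Jun at 45.3 ± 8.53, Fosl2 at 44.2 ± 12.2, Fosb at 42.4 ± 15.1 and Junb at 39.5 ± 22.5 scaled reads per kb did not differ between neighbours beyond the spread (adjusted exact permutation p of 0.672, 0.547 and 0.547). The order came from these same samples, so neither the pairs compared nor their direction was set beforehand. It also depends on the length used. Exons were mostly untranslated in every detected member but Jund, and most of all in Fosl2 and Fosb. Per kb of coding sequence Fosl2 had 438 ± 121, Fosb 261 ± 92.8, Fos 261 ± 74.7, Jund 214 ± 37.1, Jun 144 ± 27.1 and Junb 88.0 ± 50.2 scaled reads (SD over 8 samples). On that scale Fosl2 was above Fosb by 0.76 and Fosb above Junb by 1.69 (log2), each in 8 of 8 samples (adjusted exact permutation p = 0.0098). The reads divided were those of the whole gene, so coding length alone raises genes with long untranslated exons, equally in every sample. Fosl2 has 9680 exon bases and 978 coding bases, and Fosb 6243 and 1014. For Jun they are 3189 and 1002, for Junb 2301 and 1032, for Fos 2352 and 1140, and for Jund 1668 and 1023. The sample counts and p-values therefore do not show which member has more RNA.

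**Figure D5:**
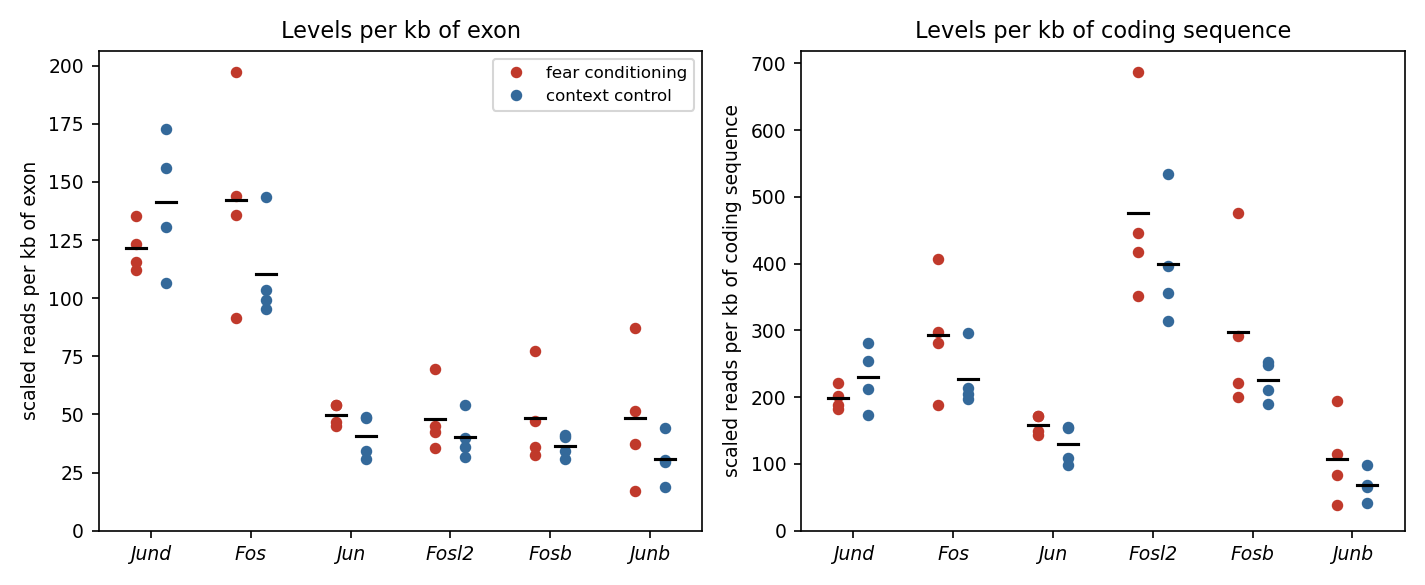
Scaled reads per kb of exon (left) and per kb of coding sequence (right) of the 6 detected members in each fear conditioning sample (red, left of each pair) and context control (blue), with black lines at the group means. Per kb of exon Jund and Fos lead at 131 and 126 over all 8 samples, and per kb of coding sequence Fosl2 leads at 438. Both panels divide the reads of the whole gene, so the right panel raises genes with long untranslated exons.

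The proteins with which AP-1 members pair, and those that act before and after them, were followed in lists of genes named for those roles. Among possible partners in a dimer (ATF, Maf and Batf proteins and their like), 0 of 19 tested genes passed the limma threshold in either direction. Of these partners 10 were higher after fear conditioning, and the median log2 change was 0.03 against 0.01 over all tested genes. Over all tested genes 0% passed and 51.8% were higher, and no list was tested as a set. The partner with the smallest p was Atf5, with 36.1 ± 18.7 scaled reads after fear conditioning and 68.6 ± 10.8 in context controls (SD, n = 4 each; log2 change -1.05, adjusted p = 0.9998 by limma). Maf followed with a log2 change of -0.51 and Atf4, the factor of the integrated stress response, with -0.25.

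Of 21 factors and coactivators that act on Fos and Jun promoters, 0 passed and 14 were higher, beside 51.8% of all tested genes. The median log2 change of the list was 0.10. Crebbp, the CREB-binding acetyltransferase, averaged 142 ± 26.9 scaled reads after fear conditioning and 101 ± 34.0 in context controls (SD, n = 4 each), a log2 change of 0.53 with an interval of -0.01 to 1.08. Mkl2, a coactivator of serum response factor, had a log2 change of 0.21 and Cited2 one of 0.31. Of 26 kinases and scaffolds upstream of AP-1, 0 passed, 19 were higher, beside 51.8% of all tested genes, and the median was 0.11. Ksr1, a scaffold of the ERK cascade, had the smallest p with a log2 change of 0.74 (interval 0.12 to 1.37, limma adjusted p = 0.9998), followed by Csnk2a1 at 0.52 and Map2k1, which encodes the ERK kinase MEK1, at 0.16.

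Of 19 genes for the turnover of AP-1 RNA and protein, 0 passed and 11 were higher, beside 51.8% of all tested genes. The median log2 change of the list was 0.03. The smallest p fell to Zfp36l1, whose protein binds AU-rich RNA and promotes its decay. Zfp36l1 averaged 91.5 ± 25.2 scaled reads after fear conditioning and 169 ± 56.9 in context controls (SD, n = 4 each), a log2 change of -0.86 with an interval of -1.43 to -0.30 (limma adjusted p = 0.9998). Rfwd2, a ubiquitin ligase that acts on Jun, stood at -0.44 and Zfp36l2 at -0.38. Of 19 tested genes listed as AP-1 targets, 0 passed, 10 were higher, beside 51.8% of all tested genes, and the list median was 0.03. Their smallest p values belonged to genes with lower means after fear conditioning. Penk, the enkephalin precursor, averaged 115 ± 32.0 scaled reads after fear conditioning and 179 ± 57.5 in context controls (SD, n = 4 each). Vim, an intermediate filament of astrocytes and vessels, averaged 128 ± 56.1 after fear conditioning and 207 ± 72.0 in context controls (SD, n = 4 each). Ezr had a log2 change of -0.37. For each of the 15 genes named from these lists the groups overlapped, and among all tested genes they failed to overlap for 1.92%.

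Markers of the cells in the tissue were measured beside the members. All 10 neuronal markers were tested and 8 were higher after fear conditioning, beside 51.8% of all tested genes. None of the 10 passed the limma threshold. Their summed scaled reads ranged from 19243 to 24055 after fear conditioning and from 18494 to 23240 in context controls. Camk2a, the excitatory neuron kinase, averaged 5327 ± 1218 and Syt1 3966 ± 312 scaled reads after fear conditioning, against 5233 ± 734 and 3615 ± 610 in context controls (SD, n = 4 each), so the neuronal identity of the tissue was present in both groups. None of the 10 astrocyte, 10 oligodendrocyte, 6 oligodendrocyte precursor, 12 endothelial and mural, 8 meningeal and 5 choroid plexus markers tested was higher after fear conditioning, and 1 of 10 microglial markers was. Their median log2 changes were -0.34, -0.49, -0.25, -0.47, -0.66 and -0.74, and -0.28 for microglia, and none of these markers passed the threshold.

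Context control replicate 3 had the highest sum of all 8 samples for each of these 7 lists and was also the control with the most Fos, Fosl2 and Junb. The oligodendrocyte sum was 10748 scaled reads in that sample and 2657 to 4995 in the other controls, beside 2876 to 4800 after fear conditioning. The astrocyte sum was 16019 to 17423 after fear conditioning and 15570 to 21537 in context controls. Without that sample the log2 change was 0.46 for Fos, 0.37 for Fosb and 0.38 for Fosl2, against 0.33, 0.32 and 0.23 with all samples. For Jun, Junb and Jund it was 0.41, 0.68 and -0.14, against 0.32, 0.48 and -0.20. The neuronal sum was highest in fear conditioning replicate 2 (24055), also the highest sample for Fos, Fosb, Fosl2, Jun and Junb. It was lowest in context control replicate 1 (18494) and fear conditioning replicate 4 (19243), the lowest samples for Fos and Junb. Context control replicate 3, high in Fos and Junb, came next with 19485. The part of cell composition in the levels of the members was not tested.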

How the data were processed

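Gene-level RNA-seq values of 8 samples, grouped by title, were used (8 of 8 columns). The deposited table is named FPKM, but each column held read counts per gene scaled by a factor for that sample, so the unit is a scaled count signal, deposited by the authors with no length correction; 100% of values above 0 were whole multiples of the column's step within 0.01 of a read. TopHat and HTSeq, without versions, and the human build hg19 are named per the submitters' processing notes. For the annotation, the strandedness and the origin of the factor, nothing is given in the sources used here. Pairs of libraries in a group differed by more than sampling noise (chi-square per degree of freedom 2.50 to 23.6, 12 pairs).

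The members and gene lists were chosen with earlier results of these data known. The named genes were all 7 members, the 3 members of each pathway list with the smallest p, the 3 genes most like each member with a mean of at least 50, and markers with the highest means. Of the genes this takes, 1 is left out of the text. log2(value + 1) of the deposited values was fitted in limma 3.58.1 (R 4.3.3; two-sided, variance trend, Benjamini-Hochberg over 14704 genes with a mean of at least 1, threshold 0.05), which understates changes of low genes. The design had assumed FPKM values, and limma was kept. edgeR 4.0.16 (quasi-likelihood) and DESeq2 1.42.0 served as alternatives on whole reads obtained by dividing each column by its step. The fit was tested on simulated data with the same noise level for all genes and with changes larger than those of the members. That test therefore says nothing about changes of the members' size. Exact permutation tests compared single genes. Lengths came from GENCODE vM21 and promoter windows from RefSeq, which held 6 of 7 members, all but Fosl1. The p-values of group comparisons set the difference between groups against the spread between these samples. Those of correlations came from permuted pairings of the samples, and those of levels per kb from flipped signs of the paired differences.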

Additional observations from a re-analysis of the deposited data

Results flagged for a closer look

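Fos was high in a single context control. Context control replicate 3 had 338 scaled reads of Fos, and the other 3 controls had 224 to 243. The gap to the nearest control was 0.835 of the range of the group, above the 95% critical value of Dixon's test for 4 samples. That sample also had the highest sums of glial and vascular markers.

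The summed list of AP-1 targets was high in the same sample, at 5133 scaled reads. The rest of the controls held 4801 to 4832, which left a gap of 0.906 of the range. Of 74 groups of 4 values examined in this way, 2 stood out, and chance alone picks about 1 group in 20.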

How the results depend on the processing

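The 6 detected members kept their direction, and none passed the adjusted threshold, in all 120 refits (20 settings each: other pseudocounts, filters and scalings, edgeR, DESeq2, sample weights, a replicate block, and each sample left out). The smallest adjusted p of a member was 0.828, without fear conditioning replicate 4. With sample weights in limma the smallest was 0.844, for Fos and Junb. The 15 named genes of the pathway lists also kept direction and call in 300 of 300 refits, but several changed in size by over 1.5 times. Their log2 change was -0.20 for Maf, -0.15 for Atf4, -0.43 for Vim and -0.23 for Ezr without fear conditioning replicate 3, and -0.40 for Atf4 without fear conditioning replicate 1. It was 0.21 for Cited2 and 0.26 for Map2k1 without fear conditioning replicate 4. Without context control replicate 2 it was 0.28 for Csnk2a1, without replicate 3 it was -0.23 for Zfp36l2 and 0.10 for Map2k1, and without replicate 4 it was 0.34 for Crebbp. Sample weights gave -0.66 for Atf5, and quantile normalization 0.14 for Mkl2 and 0.10 for Map2k1. With 1 sample left out the number of genes past the threshold ranged from 0 to 1, the single gene being Uevld, lower without fear conditioning replicate 4 (adjusted p = 0.0065), and the number of AP-1 members from 0 to 0.

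Whether replicate numbers pair the samples was not settled. Same-numbered samples, each group centred on its mean, had positive correlations of 0.228, 0.249, 0.069 and 0.113. Fear conditioning replicate 2 correlated best with its own number, and replicates 1, 3 and 4 with another. With the replicate block, 0 genes and 0 members passed the adjusted threshold, and Fos kept a log2 change of 0.33. The block gave 594 genes an unadjusted limma p under 0.05, against 397 without it.

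Without the 2 farthest samples 0 of 15 correlations passed after adjustment, against 1 with all samples, with fewer samples in the test. With coding length in place of exon length, a choice made after the data were seen, the order of Jund and Fos (log2 difference -0.25) and of Jun and Fosl2 (-1.59) turned round, and Fosl2 over Fosb and Fosb over Junb passed the threshold (0.76 and 1.69). A change of length shifts each gene by the same amount in every sample. The planned coding length from RefSeq proteins was not run, as no protein table was used here. Depth limits Junb most, with 41 reads in its lowest sample.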
